A study of Arabidopsis thaliana with 24 samples.

Results

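Maturing seeds of the Arabidopsis mutant lec2-1 were compared with seeds of the Ws wild type at the level of the transcriptome. The comparison comprised the 3 lec2-1 and 3 Ws samples of a series of 24 samples, chosen by their genotype labels. The lec2-1 samples labelled 15 and 17 days after flowering held identical counts at every locus and were counted as 1 library standing for both days, so that 5 distinct libraries (2 lec2-1, 3 Ws) of 23 in all entered the comparison. Both lines are in the Wassilewskija ecotype. The Ws libraries came from seeds collected 15, 17 and 21 days after flowering, and the lec2-1 libraries from 15 or 17 and from 21 days. No treatment was applied, and seeds of both genotypes were labelled desiccation tolerant, whereas the lec1-1, abi3-5 and fus3-3 mutants of the same series were labelled intolerant. Seeds were dissected from siliques, and the RNA of the plants at each age was pooled before a linear amplification step (in vitro transcription) and SOLiD sequencing, which left 1 library for a genotype at each age. With 1 pooled library per genotype and day, the days served as the repeats, and all p-values below measure the spread between such libraries and not between plants.

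LEC2 (LEAFY COTYLEDON2) is a transcription factor with a plant-specific B3 DNA-binding domain that acts in the embryo. Together with its B3 relatives ABI3 and FUS3 and the CCAAT-binding subunit LEC1 it drives the maturation programme, in which the embryo fills with storage proteins and oil and prepares for drying, and it is known to bind the RY motif found before many seed storage and oleosin genes. Loss of LEC2 is known to give cotyledons with leaf-like traits while the seed still survives drying, unlike the loss of LEC1, FUS3 or ABI3.

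The 5 libraries held between 2724289 and 3902342 counts. The share of counts in storage protein genes was 62.5% and 54.7% in Ws at 15 and 17 days and 15.0% at 21 days, against 41.1% and 18.3% in the early and late lec2-1 libraries, and the scaling factors that absorb this difference ran from 0.527 to 1.38. LEC2 itself had 0 counts in all 5 libraries, which allows up to 3 counts in each. It had 0 counts in 20 of the 23 libraries of the series, and 1, 4 and 1 counts in lec1-1 at 15 days, lec1-1 at 17 days and fus3-3 at 17 days, so that the mutant label could not be checked on the targeted gene. The labelled tissue was checked on markers. All 13 storage protein genes and 9 of 10 oil body genes of maturing embryos were detected, while 5 of 13 endosperm markers (PHE1, FWA, FIS2, AGL62 and WRKY10), 4 of 17 seed coat markers (BAN, TT1, TT16 and AHA10) and 2 of 7 silique wall markers (IND and NST1) had 0 counts in all 5 libraries. The other members of these lists had counts. Endosperm markers took 0.0626% to 0.138% of counts in the 5 libraries and seed coat markers 0.0124% to 0.0281%. Silique wall markers took 0.000235% to 0.000718%. The Col-0 libraries labelled 17 and 21 days carried storage shares of 18.5% and 62.4%, the reverse of the order in the other wild types, which bears on the comparisons with Col-0 below. These libraries also enter the main fit, in which all libraries share the day term and the estimate of spread.

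Of 16085 genes tested across all 23 libraries, 303 (1.88%) differed between lec2-1 and Ws at a Benjamini-Hochberg adjusted p under 0.05 in edgeR's quasi-likelihood test, and are referred to as called. The change was one-sided: 297 genes (1.85% of those tested) rose in lec2-1 and 6 (0.0373%) fell. The median log2 fold change was 4.63 among the genes that rose and -0.01 over all tested genes. Among the genes that rose, 42 had 0 counts in all Ws libraries and another 68 had 1 to 3 counts over the Ws libraries together. All 303 lay on the same side at matched days, with the early lec2-1 library compared with Ws at 15 and at 17 days and the late one with Ws at 21 days. Of all tested genes, 23.4% were higher and 17.8% lower in lec2-1 at matched days. The 303 genes were picked by a test on the same libraries, so this is not separate support. At an unadjusted p under 0.05, 1352 genes were higher and 139 lower in lec2-1. The number of calls depended on every library: it was 57 without the early and 75 without the late lec2-1 library, and 59, 55 and 79 without Ws at 15, 17 and 21 days.

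**Figure D1:**
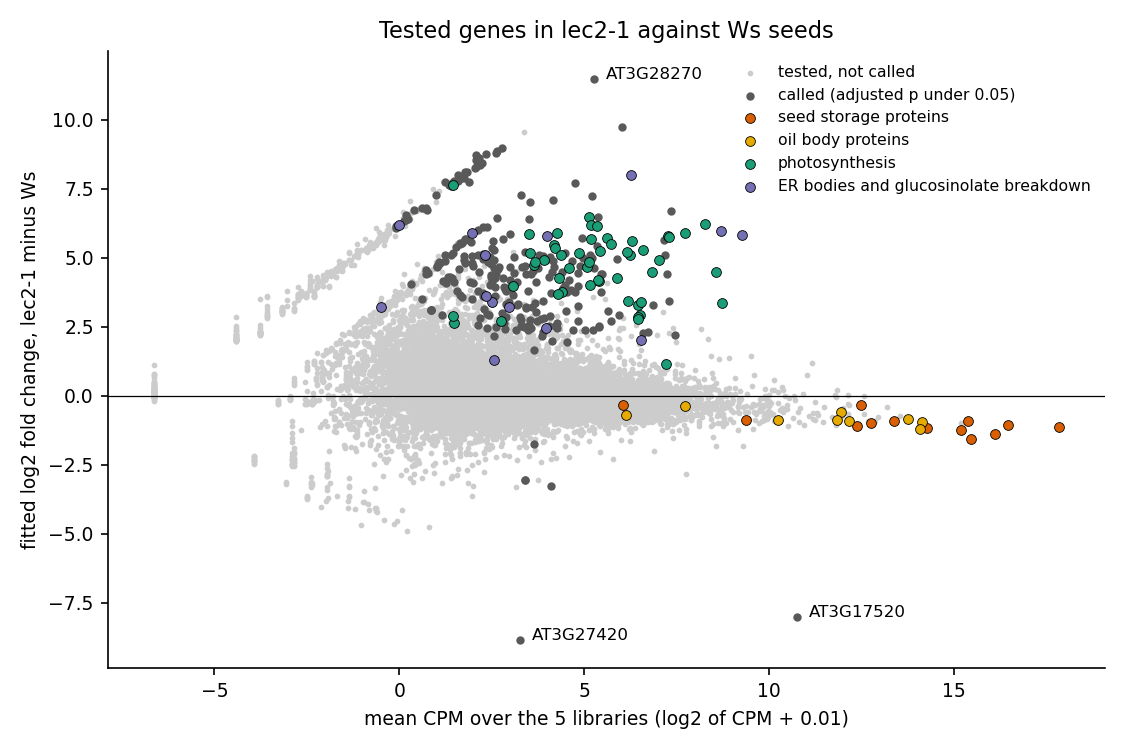
Each point is 1 of the 16085 tested genes, with its mean CPM over the 5 libraries as log2(CPM + 0.01) and the fitted log2 fold change of lec2-1 minus Ws on the vertical axis. Photosynthesis and ER body genes lie above 0 and storage and oil body genes below it at the right, AT3G17520 and AT3G27420 stand alone at the bottom, and the slanting upper edge holds genes with 0 counts in Ws, whose fitted fold changes depend on a prior count.

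The deepest losses in lec2-1 were in a pair of genes on chromosome 3. AT3G17520 (chr3:5999174-6000447 of TAIR10.1) encodes a late embryogenesis abundant (LEA) family protein, a class of hydrophilic proteins made as seeds dry. Its counts were 3365, 5572 and 10257 in Ws at 15, 17 and 21 days, and 43 and 45 in the early and late lec2-1 libraries. The groups lay far apart, with a log2 fold change of -8.02 (SE 0.94, adjusted p = 0.000437, n = 2 and 3 libraries). In CPM (counts scaled to a common library size by the TMM factors), both lec2-1 libraries, at 13.7 and 8.37, were also below the other 21 libraries of the series, of which the lowest, lec1-1 at 15 days, had 494 and the median was 1567. AT3G27420 (chr3:10148555-10150420), annotated as a bromodomain testis-specific protein, had 24, 20 and 71 counts in Ws and 0 in both lec2-1 libraries. It was at least 48.1-fold lower in lec2-1 when 3 counts over both lec2-1 libraries are taken as the floor (adjusted p = 0.000437), and the other 21 libraries of the series had 3.16 CPM or more. The nearest tested neighbours were not called: CIPK1 and BSH, on either side of AT3G17520, had log2 fold changes of -0.02 and 0.95, and PBB1, next to AT3G27420, had 0.08.

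The remaining losses were smaller. AT1G03270, a CBS domain protein, had 44, 33 and 115 counts in Ws and 7 and 18 in lec2-1, with no overlap between the groups in CPM (log2 fold change -3.27, SE 0.51, adjusted p = 0.00225), and the call was lost without the early lec2-1 library (adjusted p = 0.0726). WNK8, a with-no-lysine protein kinase, had 22, 27 and 62 counts in Ws and 7 and 10 in lec2-1 (log2 fold change -3.05, SE 0.59, adjusted p = 0.0110). The locus AT5G41992 held the same counts as WNK8 in every library, so that these 2 of the 6 calls are 1 measurement, lost without either lec2-1 library or without Ws at 17 days (adjusted p = 0.0795, 0.210 and 0.0517). Fes1C had 21, 20 and 92 counts in Ws and 13 and 35 in lec2-1 (log2 fold change -1.75, SE 0.44, adjusted p = 0.0453), and this call was lost without any 1 of the 5 libraries.

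The stretches before the starts of the genes that lost the most are shown because LEC2 belongs to a family that binds the RY motif. Sequences are the 250 bases immediately before the annotated start, read 5′ to 3′ on the gene's own strand from the RefSeq TAIR10.1 assembly, which shares its nuclear chromosomes with the TAIR10 build named in the submitters' processing notes. Capitals mark the RY motif CATGCA and the G-box CACGTG, a motif bound by bZIP and bHLH factors, on either strand. The windows are chr3:6000448-6000697, minus strand, for AT3G17520 and chr3:10148305-10148554, plus strand, for AT3G27420.
AT3G17520: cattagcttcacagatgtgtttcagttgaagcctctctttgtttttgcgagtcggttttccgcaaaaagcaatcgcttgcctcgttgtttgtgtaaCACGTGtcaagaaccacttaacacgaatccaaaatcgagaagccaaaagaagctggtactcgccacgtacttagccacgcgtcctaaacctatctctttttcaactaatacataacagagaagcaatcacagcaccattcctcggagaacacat
AT3G27420: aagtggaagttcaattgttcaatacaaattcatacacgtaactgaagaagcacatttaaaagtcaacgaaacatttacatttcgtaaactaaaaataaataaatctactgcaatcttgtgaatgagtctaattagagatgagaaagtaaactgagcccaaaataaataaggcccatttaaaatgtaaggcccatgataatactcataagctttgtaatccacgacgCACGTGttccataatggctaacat
Each window held 1 G-box and no RY motif. Of the 6 genes that fell, 5 have such a window as nuclear protein-coding genes, and 0 of these held an RY motif while 2 held a G-box. Among all tested genes with a window, 7.59% held an RY motif and 8.22% a G-box, and 5 genes are too few to compare with these shares. In the LEA list 44.4% held a G-box.

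The partners of LEC2 were not called. ABI3 had 340, 308 and 359 counts in Ws and 364 and 490 in lec2-1, which after scaling gave a log2 fold change of -0.68 (SE 0.54, adjusted p = 0.907), and FUS3 had 45, 30 and 3 against 42 and 14 (-0.27, SE 1.12, adjusted p = 1.00). LEC1 had 0 counts in all 5 libraries. Of 12 genes reported as LEC2 targets or partners, 7 were tested and 0 were called, with a median log2 fold change of -0.46. Among them BBM, an AP2 factor of early embryos, had 9, 19 and 14 counts in Ws and 8 and 3 in lec2-1 (log2 fold change -2.28, SE 0.89, adjusted p = 0.329). WRI1, the regulator of oil synthesis, had 0.69 (SE 0.96), and AGL15, IAA30, NF-YB6, EEL and YUC4 had values between -1.10 and -0.33 with standard errors of 0.67 to 1.38.

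Storage protein transcripts had fitted values below 0 in lec2-1 against Ws, by amounts within the spread between libraries. At matched days 5 of the 13 genes were lower in lec2-1. All 13 storage genes were tested and 0 were called, where 0.0373% of all tested genes were called lower. All 13 had a log2 fold change below 0, with a median of -1.06 and a range from -1.59 to -0.34. In edgeR 0 of them passed an unadjusted p under 0.05, and DESeq2 and limma also called 0. Their share of all counts, given above, overlapped between the genotypes (exact two-sided permutation test over 2 and 3 libraries, p = 0.6, where the smallest p possible is 0.2). The cruciferin CRU3, a 12S globulin, had 806107, 596646 and 167106 counts in Ws and 590952 and 319067 in lec2-1 (log2 fold change -1.13, SE 1.23, adjusted p = 0.942). The 2S albumin SESA3 had 297816, 259394 and 47386 counts in Ws and 210073 and 102106 in lec2-1 (log2 fold change -1.06, SE 1.16, adjusted p = 0.942). For both genes the late lec2-1 library had more counts than Ws at 21 days and the early one fewer than Ws at 15 days. SESA5, with the value farthest below 0 of the 13 genes, had 107442, 139518 and 103924 counts in Ws and 74018 and 75525 in lec2-1 (log2 fold change -1.59, SE 0.86, adjusted p = 0.672), and it was the 1 storage gene whose lec2-1 libraries were both below all 3 Ws libraries in CPM, a pattern seen in 8.41% of all tested genes. The albumins SESA1 to SESA4 are close copies of each other, between which the counting may have divided reads.

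The values of storage genes depended on the scaling. With library totals in place of the TMM factors, the median over all tested genes moved to 0.66 and that of the storage genes to -0.24, which is -0.90 relative to it, and 11 of the 13 were below 0. Between the early and late libraries the median change of storage genes on the log2(CPM + 2) scale was -3.21 in Ws (21 days minus the mean of 15 and 17 days) and -1.67 in lec2-1, a difference that was not tested.

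Oil body proteins were likewise not called. Of 10 genes 9 were tested and 0 were called, where 0.0373% of all tested genes were called lower. All 9 had values below 0, with a median of -0.88 and a range from -1.22 to -0.36. In edgeR 0 passed an unadjusted p under 0.05, and DESeq2 and limma called 0. At matched days 7 of the 9 were lower in lec2-1, against 17.8% of all tested genes, and in 3 both lec2-1 libraries were below all Ws libraries, against 8.41%, while among the 13 storage genes 5 were lower at matched days. OLEO1, an oleosin that coats oil bodies, had 47628, 49082 and 27662 counts in Ws and 45907 and 36528 in lec2-1 (log2 fold change -0.96, SE 0.96, adjusted p = 0.935). The seipin AT5G16460, a protein of oil body formation, had 95, 134 and 353 counts against 144 and 312 (-0.71, SE 0.39, adjusted p = 0.675). The caleosin ATS1 had -0.58 (SE 0.81), and OLEO2 and OLEO3 had -1.22 (SE 1.03) and -0.36 (SE 0.94). Enzymes of oil and fatty acid synthesis had a median of 0.25 over 30 tested genes, with 0 called.

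Nearly all of these reserve genes carry the RY motif close to their start. The motif occurred in the window of 11 of 13 storage genes (84.6%) and 10 of 10 oil body genes, against 1186 of 15636 tested genes with a window (7.59%) and 8.43% of all 27437 nuclear protein-coding genes. Among the genes that rose in lec2-1, 24 of 285 (8.42%) held it. The albumin SESA3 (chr4:13611546-13611795, plus strand) and the oleosin OLEO1 (chr4:12900180-12900429, plus strand) are shown as reserve genes with the motif repeated before their starts. Neither was called. MBP1 (chr1:19352792-19353041, minus strand), one of the strongest risers, is shown as a window without the motif. Whether the motif bears on the change in lec2-1 was not tested.
SESA3: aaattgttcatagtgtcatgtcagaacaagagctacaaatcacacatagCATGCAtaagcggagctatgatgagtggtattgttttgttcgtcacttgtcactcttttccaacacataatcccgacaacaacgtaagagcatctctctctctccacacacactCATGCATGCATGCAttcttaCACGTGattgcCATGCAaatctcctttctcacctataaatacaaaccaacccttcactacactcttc
OLEO1: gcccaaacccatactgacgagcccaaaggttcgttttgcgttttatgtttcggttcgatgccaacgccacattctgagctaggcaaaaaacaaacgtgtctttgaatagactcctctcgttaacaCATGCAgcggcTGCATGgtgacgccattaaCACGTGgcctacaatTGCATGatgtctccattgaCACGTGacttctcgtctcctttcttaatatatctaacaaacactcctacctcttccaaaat
MBP1: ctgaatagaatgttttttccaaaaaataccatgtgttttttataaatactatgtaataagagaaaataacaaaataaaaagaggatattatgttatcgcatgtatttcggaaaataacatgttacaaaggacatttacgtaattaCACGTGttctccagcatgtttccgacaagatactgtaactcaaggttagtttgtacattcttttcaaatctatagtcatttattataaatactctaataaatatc
Counting overlapping matches on both strands, SESA3 held 7 RY matches and 1 G-box, OLEO1 held 3 and 2, and MBP1 held 0 and 1. The G-box was present in 8 of 13 storage genes (61.5%), 2 of 10 oil body genes, 20 of 45 LEA genes (44.4%), 10 of 52 photosynthesis genes (19.2%) and 8.22% of tested genes. These shares describe letters in a fixed window and carry no test.

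**Figure D2:**
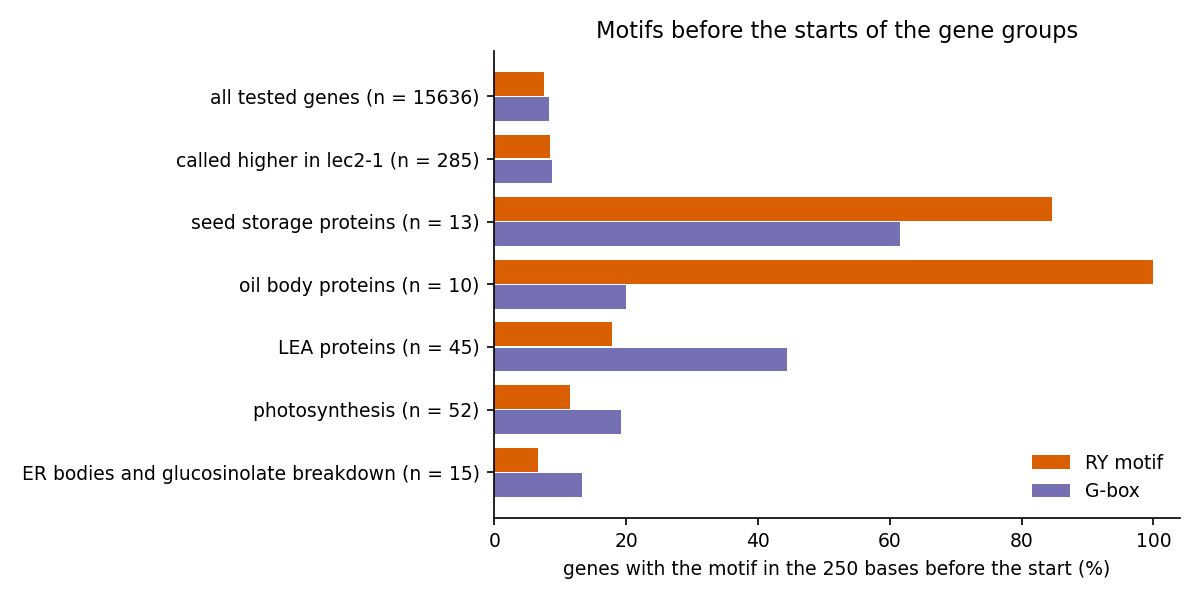
Bars give the percentage of genes in each group with at least 1 RY motif or G-box, on either strand, in the 250 bases before the annotated start, with n the number of genes that have a window. The RY bar reaches 84.6% in storage and 100% in oil body genes and 8.42% in genes that rose in lec2-1, close to the 7.59% of all tested genes.

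Of 45 LEA genes 41 were tested and 2 were called, against 1.88% of all tested genes. Besides AT3G17520 the call was SAG21, a senescence-associated member of the family, which rose from 48, 66 and 105 counts in Ws to 615 and 2582 in lec2-1 (log2 fold change 3.45, SE 0.60, adjusted p = 0.00568). Both lec2-1 libraries exceeded all Ws libraries, and without the late one the call was lost (adjusted p = 0.131). The median over the 41 genes was -0.46, with 32 below 0. In 5 members both lec2-1 libraries were above all Ws libraries, and in another 5 both were below. Among all tested genes these patterns had shares of 15.7% and 8.41%. LEA genes took 2.52%, 5.62% and 15.3% of counts in Ws and 4.45% and 8.71% in lec2-1, the share being higher at 21 days than earlier in both genotypes. None of 16 heat shock, 8 raffinose family and inositol, 23 abscisic acid, 17 other seed transcription factor, 8 chlorophyll breakdown or 9 germination and reserve mobilisation genes tested was called, and the medians of these lists lay between -0.45 and 0.26. The same held for 11 antioxidant and tonoplast channel genes (median -0.63) and 6 flowering repressors of the FLC group (median -0.68), where FLC had 34, 20 and 101 counts in Ws and 6 and 15 in lec2-1 (log2 fold change -3.07, SE 0.97, adjusted p = 0.141). Among 13 cell cycle, 14 shoot apex, 6 trichome, 6 auxin, 4 endosperm, 3 silique wall and 8 reference genes tested, 0 were called, with medians of 1.13, 0.26, 0.21, 0.93, -0.33, 0.28 and 0.09.

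**Figure D3:**
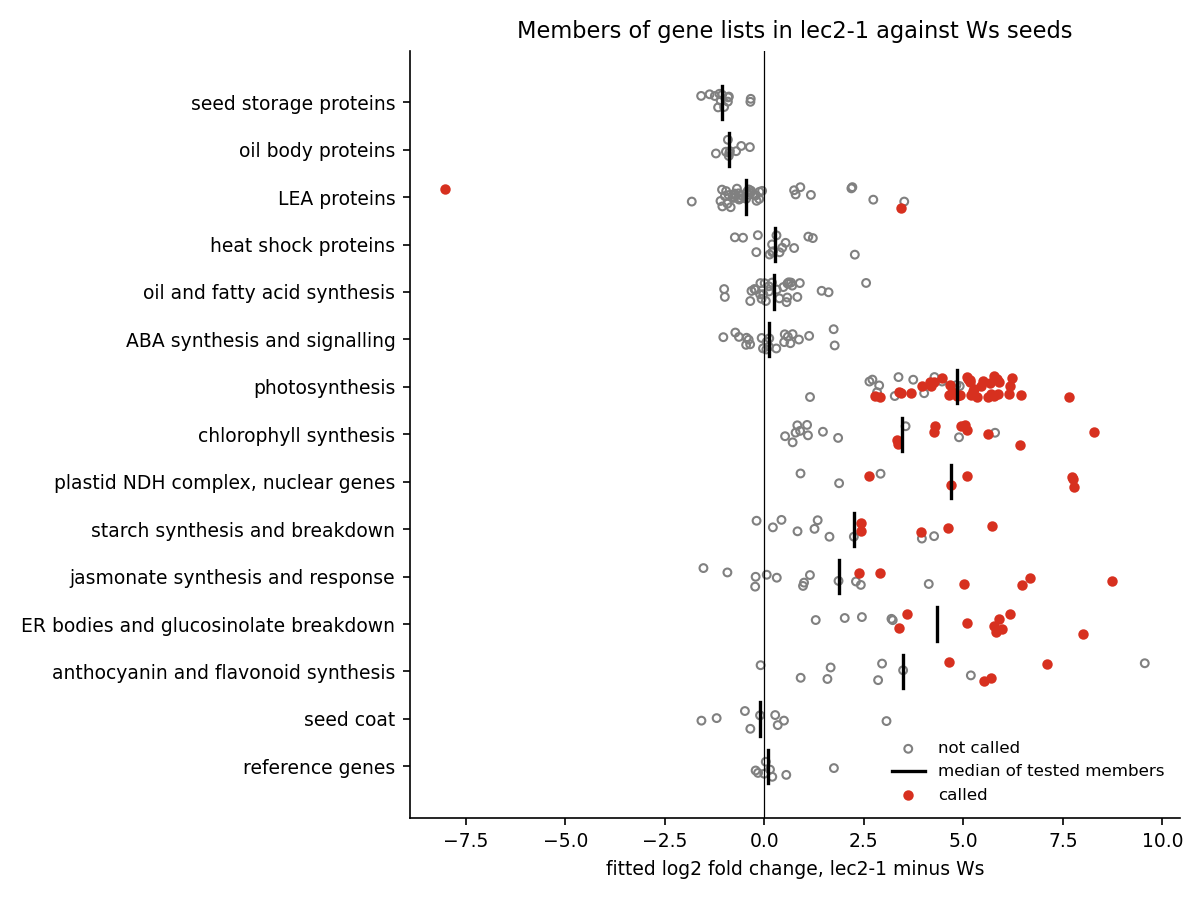
Each point is a tested member of a gene list at its fitted log2 fold change of lec2-1 minus Ws, filled red where called, and black bars mark the median of the tested members. Storage and oil body members sit between -1.59 and -0.34 with no filled point, whereas photosynthesis members sit between 1.15 and 7.64 with 38 of 51 filled.

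Genes of the photosynthetic apparatus were higher in lec2-1. Of 52 nuclear photosynthesis genes 51 were tested, and 38 of them rose, 0 fell and 13 were not called, with a median log2 fold change of 4.84. Over all tested genes, 1.85% were called higher. In all 51 both lec2-1 libraries exceeded all 3 Ws libraries in CPM, against 15.7% of all tested genes. The 52 genes took 0.0383%, 0.0329% and 0.0424% of the counts in Ws and 0.95% and 0.94% in lec2-1, without overlap (exact two-sided permutation test, p = 0.2, the smallest that 2 and 3 libraries allow). In bulk seeds, more cells of a kind and more RNA per cell cannot be told apart.

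Antenna proteins, which gather light for the photosystems, were among the genes that rose. LHB1B2, a member of the main antenna of photosystem II, had 29, 25 and 23 counts in Ws and 2976 and 2885 in lec2-1 (log2 fold change 6.22, SE 1.50, adjusted p = 0.0356). LHCA1, of the photosystem I antenna, had 14, 9 and 26 counts against 1317 and 1717 (5.77, SE 1.34, adjusted p = 0.0291). LHCB2.3 was at 0 in Ws and at 24 and 32 counts in lec2-1, at least 14.9-fold higher with 3 counts over the Ws libraries as the floor. Antenna genes of 1 family, such as CAB2 and CAB3, are near-identical and their counts may be shared.

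Electron carriers and carbon fixation moved the same way. PETE1, a plastocyanin that carries electrons between the photosystems, rose from 1, 3 and 1 counts to 180 and 193 (log2 fold change 5.90, SE 0.88, adjusted p = 0.00139), the lowest adjusted p of the group. PSAD-1 of photosystem I rose from 2, 3 and 4 counts to 310 and 427 (6.17, SE 1.23), and PSBO1 of the water-splitting complex from 15, 17 and 10 to 907 and 907 (5.28, SE 1.16). The Rubisco small subunit RBCS3B rose from 11, 5 and 4 counts to 193 and 133 (3.68, SE 0.69), and Rubisco activase RCA from 51, 20 and 66 to 632 and 1065 (3.38, SE 0.77). The 13 members that were not called had values from 1.15 to 4.91.

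The number of photosynthesis calls depended on each of the 5 libraries and on which wild type was the control. Leaving out 1 library left 3 calls without the early and 2 without the late lec2-1 library, and 2, 1 and 3 without Ws at 15, 17 and 21 days. Without a day term 2 calls were left in the fit of all 23 libraries and 35 in a fit of the Ws and lec2-1 libraries alone, while all tested members had values above 0 in each of these fits. The median log2(CPM + 2) of the 51 genes was 2.66, 2.56 and 2.07 in Ws at 15, 17 and 21 days and 6.87 and 6.22 in the early and late lec2-1 libraries. In the Ler wild type it was 5.69, 4.06 and 1.99 and in Col-0 it was 5.74, 2.66 and 3.98, so that both other wild types were well above Ws at 15 days and below the early lec2-1 library. Against Ler 3 and against Col-0 4 of the genes were called higher in lec2-1, with median log2 fold changes of 2.81 and 2.55, whereas against the mean of Ws, Ler and Col-0 43 were called, with a median of 3.38. At 21 days the lec2-1 library stood above the 3 wild types, near lec1-1 at 5.92, abi3-5 at 6.10 and fus3-3 at 5.86, while abi3-1 was at 1.93.

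**Figure D4:**
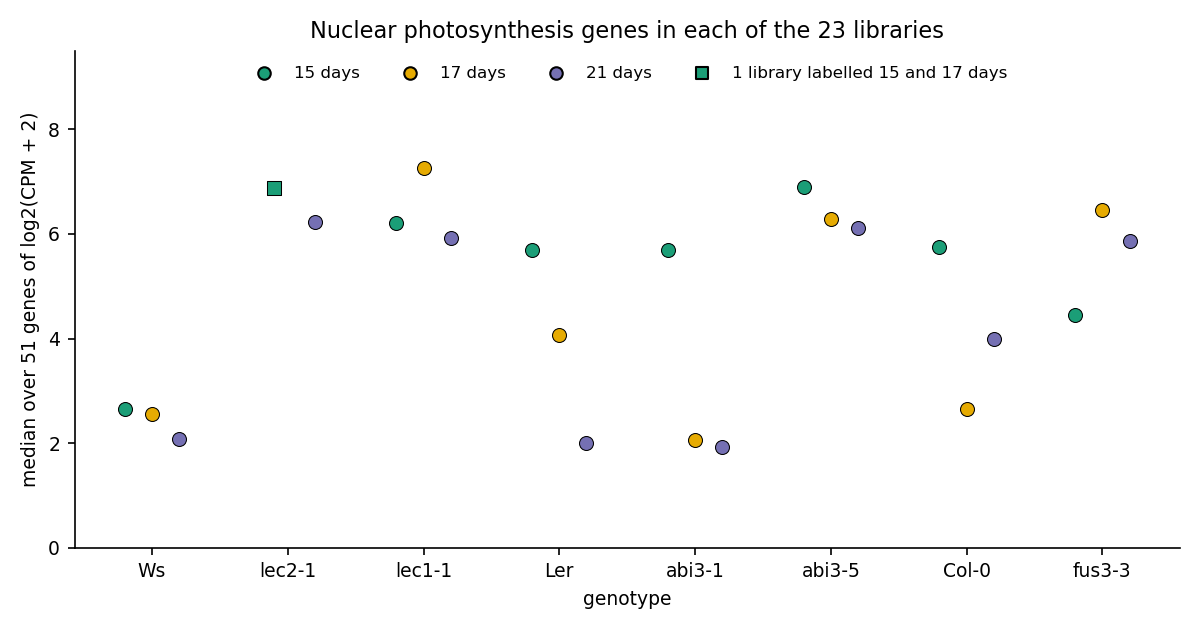
Points give the median over the 51 tested photosynthesis genes of log2(CPM + 2) in each of the 23 distinct libraries, by genotype, coloured by days after flowering, with a square for the lec2-1 library labelled both 15 and 17 days. Ws lies between 2.07 and 2.66 at all ages and lec2-1 at 6.22 and 6.87, while Ler and Col-0 start at 5.69 and 5.74 at 15 days and are lower later.

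Pigment synthesis, plastid electron transport and starch genes accompanied the apparatus. These lists were added after values had been seen. Among 22 chlorophyll synthesis genes, all tested, 10 rose and 0 fell, against 1.85% of all tested genes called higher, with a median of 3.45. HEMA1, the first committed enzyme of the pathway, rose from 1, 2 and 1 counts to 88 and 67 (log2 fold change 5.03, SE 0.92, adjusted p = 0.00748). The cyclase subunit CRD1 had 17, 14 and 16 counts in Ws and 1280 and 1484 in lec2-1 (5.63, SE 1.22, adjusted p = 0.0214), and the protochlorophyllide reductase PORB had 6, 5 and 22 against 536 and 598 (4.94, SE 0.94, adjusted p = 0.0104). GUN4, an activator of magnesium chelatase, was at 0 in Ws and at 43 and 38 counts in lec2-1, at least 21.5-fold higher.

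Of 9 tested nuclear genes of the plastid NDH complex, which cycles electrons around photosystem I, 6 rose, among them PnsB2 from 0 to 19 and 47 counts, at least 17.5-fold. Of 15 starch genes 5 rose, with a list median of 2.25, whereas 1.85% of all tested genes were called higher. The median log2(CPM + 2) of the list was 1.72 to 2.80 in Ws and 3.95 and 4.04 in lec2-1. In Col-0 it was 3.03 to 3.64, between Ws and lec2-1, and in Ler 1.99 to 2.83. The call of ADG1 (log2 fold change 2.44) was lost without a day term and without any 1 of the Ws libraries. The value of ADG1 was 0.79 against Ler and -0.33 against Col-0 in place of Ws. GBSS1, the starch synthase that makes amylose, had 11, 1 and 1 counts in Ws and 196 and 441 in lec2-1 (log2 fold change 5.71, SE 1.08, adjusted p = 0.00990), and APL3, a subunit of the enzyme that makes ADP-glucose, had 4, 2 and 0 against 51 and 251 (4.63, SE 0.94, adjusted p = 0.0151). Calls in the chlorophyll, NDH and starch lists fell to 3, 1 and 1 without the early and to 6, 1 and 0 without the late lec2-1 library. Without Ws at 15 days they were 1, 1 and 2, without Ws at 17 days 3, 1 and 0, and without Ws at 21 days 4, 2 and 0.

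Transcripts encoded in the plastid had smaller values. Of 68 tested plastid loci 7 were called higher, against 1.85% of all tested genes. The median log2 fold change of the 68 loci was 1.93, and all 68 were above 0. Their share of all counts was 0.0305%, 0.0393% and 0.0499% in Ws and 0.206% and 0.341% in lec2-1. The locus ATCG00490 had 3, 4 and 13 counts in Ws and 77 and 81 in lec2-1 (log2 fold change 2.85, SE 0.63, adjusted p = 0.0219). ATCG00480 had 78, 54 and 123 counts against 515 and 1322 (2.31, SE 0.51, adjusted p = 0.0225), but its value was 0.62 against Ler and -0.50 against Col-0 in place of Ws, and the call was lost without any 1 of the 5 libraries. Of the 7 plastid calls, 0 were left without the early and 2 without the late lec2-1 library, and 0, 1 and 0 without Ws at 15, 17 and 21 days. Mitochondrial transcripts showed no such pattern, with 0 of 18 called and a median of -0.57.

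A defence-related group stood out next to the green genes. ER bodies are compartments of the endoplasmic reticulum, typical of seedlings and roots in the Brassicaceae, that hold beta-glucosidases able to release toxic products when tissue is damaged, and glucosinolate breakdown is a related defence. In this list, also added after values had been seen, 14 of 15 genes were tested, 9 rose and 0 fell, against 1.85% of all tested genes called higher, with a median of 4.34. In all 14 both lec2-1 libraries exceeded every Ws library, against 15.7% of all tested genes. The beta-glucosidase BGLU18 had 54, 39 and 70 counts in Ws and 7113 and 3780 in lec2-1 (log2 fold change 5.81, SE 0.98, adjusted p = 0.00405). The epithiospecifier protein ESP, which directs glucosinolate breakdown towards nitriles, had 34, 30 and 36 counts against 4868 and 2466 (5.97, SE 1.13, adjusted p = 0.00990). The myrosinase-binding protein MBP1 had 2, 2 and 1 counts against 776 and 726 (8.01, SE 0.98, adjusted p = 0.000804). For all 3 genes the early lec2-1 library had the higher CPM, and Ws never came near either.

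Genes of ER body formation rose as well. NAI2, a structural protein of ER bodies, had 0, 2 and 0 counts in Ws and 44 and 52 in lec2-1, a ratio of 38.2 with a counting interval of 10.3 to 320. TSA1, its close relative, had 3, 0 and 2 counts against 144 and 166 (log2 fold change 5.77, SE 0.99, adjusted p = 0.00571), and the regulator NAI1 had 0 against 10 and 9, at least 5.04-fold higher. MEB1, a membrane protein of ER bodies, had 1, 1 and 6 counts against 56 and 41 (3.38, SE 0.74, adjusted p = 0.0219). Calls in this list numbered 3 without the early and 5 without the late lec2-1 library, and 3, 3 and 4 without Ws at 15, 17 and 21 days.

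Jasmonate genes, of a hormone pathway of wounding and defence, rose in part. Of 19 tested genes in a list added after values had been seen, 6 rose and 0 fell, with a median of 1.86. Among all tested genes 1.85% were called higher. The plastid lipoxygenase LOX2, which starts the pathway, rose from 2, 2 and 3 counts to 490 and 251 (log2 fold change 6.48, SE 0.96, adjusted p = 0.00139). The allene oxide cyclase AOC1, a later step, was at 0 in Ws and at 45 and 59 counts in lec2-1, at least 27.6-fold higher. THI2.1, a thionin known to respond to jasmonate, rose from 8, 4 and 9 counts to 2166 and 556 (6.68, SE 0.94, adjusted p = 0.00139). Its early lec2-1 library was the higher one. Without the early or the late lec2-1 library 2 of the 6 calls were left, and without Ws at 15, 17 or 21 days 2, 2 and 3.

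Anthocyanin genes formed a smaller group. Of 13 flavonoid genes, all tested, 4 rose, 0 fell and 12 had values above 0, with a median of 3.49. The share of all tested genes called higher was 1.85%. The MYB factors PAP1 and MYB90, which switch on anthocyanin synthesis and are close copies of each other, rose together. PAP1 had 0, 1 and 0 counts in Ws and 24 and 42 in lec2-1, a ratio of 52.6 with a 95% counting interval of 9.11 to 2107. MYB90 had 0, 2 and 0 counts in Ws and 46 and 101 in lec2-1, a ratio of 58.5 (15.9 to 488). DFR, an enzyme of the branch to anthocyanins, rose from 7, 4 and 0 counts to 191 and 119 (log2 fold change 4.65, SE 0.97, adjusted p = 0.0179), and GSTF12, which helps carry the pigment to the vacuole, from 0, 0 and 2 counts to 172 and 176, a ratio of 139 (38.1 to 1149). None of the 4 calls was left when any 1 of the 5 libraries was left out. In seed coat markers, which share part of this pathway, 0 of 9 tested genes were called, and the anthocyanidin reductase gene BAN was at 0 in all 5 libraries. Their summed share of counts was 0.0124% to 0.0203% in Ws and 0.0204% and 0.0281% in lec2-1. After scaling, their summed CPM overlapped, at 236, 233 and 191 in Ws and 212 and 204 in lec2-1.

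**Figure D5:**
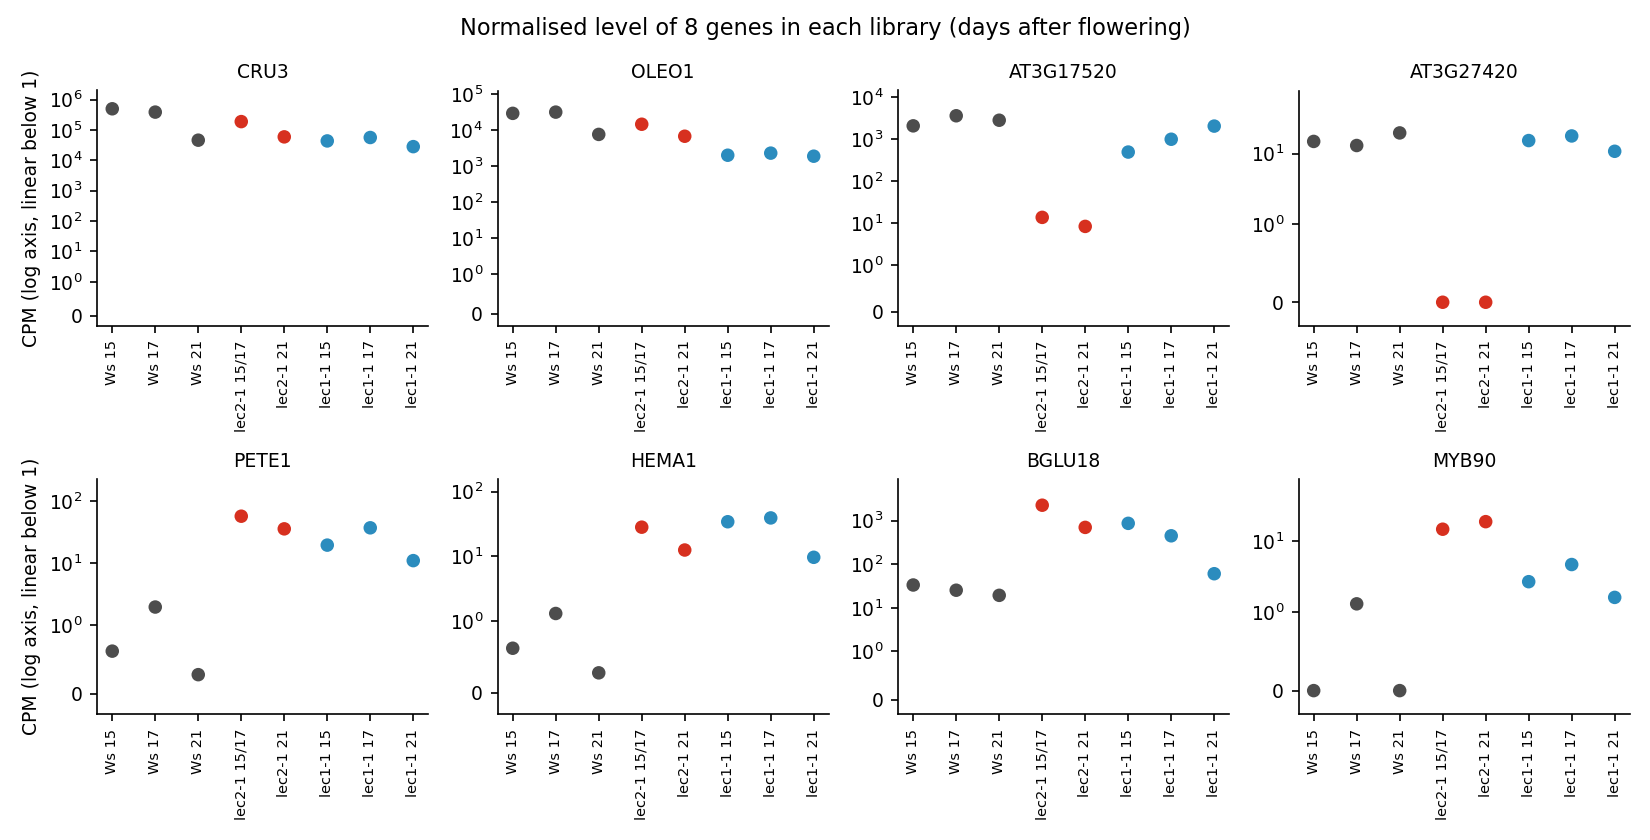
Each panel gives the CPM of 1 gene in the 3 Ws (grey), 2 lec2-1 (red) and 3 lec1-1 (blue) libraries, labelled by days after flowering, on a log axis that is linear below 1. CRU3 and OLEO1 in lec2-1 lie within or next to the Ws range, AT3G17520 and AT3G27420 lie far below both other genotypes, and PETE1, HEMA1, BGLU18 and MYB90 lie above Ws.

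The genes with the highest fitted values outside these groups included several with almost no counts in Ws. AT3G28270, annotated as a putative transmembrane protein, had 0 counts in the 3 Ws libraries and 324 and 468 in lec2-1, at least 210.3-fold higher (adjusted p = 0.00139). AT3G28220, a TRAF-like family protein that lies close to it on chromosome 3, had 1, 0 and 0 counts against 681 and 582, a ratio of 1006 with a counting interval of 180.2 to 39760. Both are absent or nearly so in Ws and plainly present in lec2-1. MYB47 was at 0 in Ws and at 47 and 83 counts in lec2-1, and GID1B, a gibberellin receptor, was at 0 against 30 and 75, at least 34.5-fold and 27.9-fold higher. AT3G62550, AT1G64370, AT5G38980 and the transcribed pseudogene AT2G16367 were also at 0 in Ws, and their lower limits ran from 26.5-fold to 45.1-fold. Of 9 tested gibberellin genes 1 rose, AT5G14920, a gibberellin-regulated family protein, from 0, 2 and 5 counts to 176 and 83 (log2 fold change 5.07, SE 0.88, adjusted p = 0.00531). The median of this list was -0.13, with 5 of the 9 genes below 0. Over all tested genes 1.85% were called higher.

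The series also holds lec1-1, a Ws mutant of the LEC1 gene whose seeds do not tolerate drying, and the difference between the mutants was tested directly. Because both would be compared with the same Ws libraries, only the direct contrast is a test of that difference. It called 204 genes (1.27% of those tested; 0.653% higher and 0.615% lower in lec1-1), and 14 of the 303 genes that changed in lec2-1 were among them. The genes that fell stood out: AT3G17520 had 494, 998 and 2053 CPM in lec1-1 and was higher there than in lec2-1 by 6.58 on the log2 scale (SE 0.88, adjusted p = 0.00190), and AT3G27420 had 15.3, 17.8 and 10.8 CPM in lec1-1 (8.70 higher, SE 1.02, adjusted p = 0.00114).

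Of the other 12 genes, 8 were higher in lec2-1 and 4 in lec1-1. AT3G28270 had 2.37, 2.66 and 1.37 CPM in lec1-1 against 103 and 87.0 in lec2-1 (log2 difference of lec1-1 minus lec2-1 -5.59, SE 0.90, adjusted p = 0.0119), and AT3G28220 had 1.93, 4.0 and 0.916 against 217 and 108 (-6.29, SE 0.97, adjusted p = 0.00637). For MBP1 the difference was -3.77 (SE 0.76, adjusted p = 0.0332), and for the lectin JAL22, higher in lec1-1, it was 3.32 (SE 0.75, adjusted p = 0.0402). In the ER body list 4 of 14 genes differed between the mutants, against 1.27% of all tested genes. These were MBP1 and JAL22 and also PYK10, the main beta-glucosidase of root ER bodies, and PBP1, a PYK10-binding protein. PYK10 (4.65, SE 0.78, adjusted p = 0.0109) and PBP1 (3.43, SE 0.74, adjusted p = 0.0346) were higher in lec1-1, and neither was called between lec2-1 and Ws. In the photosynthesis list 0 of 51 genes differed between the mutants, with adjusted p-values of 0.160 or more. The medians against Ws were 4.84 in lec2-1 and 4.68 in lec1-1. In the storage list 0 of 13 differed (lowest adjusted p = 0.0579, for CRU2), with medians against Ws of -1.06 in lec2-1 and -2.94 in lec1-1 and 0 and 8 genes called lower. With 1.27% of all tested genes called, a count of 0 in the photosynthesis or storage list does not show that the mutants are alike. The direct contrast called 2 genes without the early and 7 without the late lec2-1 library, and 101, 93 and 159 without Ws at 15, 17 and 21 days.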

How the data were processed

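The authors deposited raw counts per locus for 24 samples, mapped to TAIR10 per the submitters' processing notes, and a table of normalized signal that they made with edgeR, per the same notes. The aligner and counter are not given in the sources used here. Columns were matched to samples by name, and 0 columns were left unused. Of 33597 loci, 16085 passed filterByExpr (edgeR 4.0.16 in R 4.3.3, minimum count 10). The counts of all 23 distinct libraries were fitted by edgeR's quasi-likelihood method with TMM scaling, genotype and day, the doubled lec2-1 library being assigned equally to 15 and 17 days. The genotype of each sample came from its labels. The threshold was 0.05 on p-values adjusted by the Benjamini-Hochberg method across all tested genes. The SE is the log2 fold change divided by the square root of the F statistic. CPM are counts divided by the TMM-scaled total of tested genes, on the usual scale. Counting intervals (95%) and floors of 3 counts cover counting error only, and the libraries were amplified without molecular identifiers. Alternatives used DESeq2 1.42.0, limma 3.58.1 on log2(deposited signal + 1), other scalings, filters, day codings and controls, and leaving out each library. Share tests used scipy 1.17.1.

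The genes compared and the 25 gene lists (394 members) were chosen with earlier results of these data known, and another 5 lists and the organelle groups were added after values had been seen. The genes named were members of the regulator, LEC2 target, storage and oil body lists, called members of any list, up to 4 members with the lowest adjusted p in other lists, and the 10 with the largest change in each direction among called genes with a mean of at least 20 counts and no overlap between the genotypes. Neighbouring genes, and CSLA10, GRP3S, P5CS1, AT1G52000, AT4G29030, AT1G06360, PYK10 and PBP1, were named after their values were seen. Promoter windows were read from the RefSeq TAIR10.1 genome and annotation. The models were tested on simulated data.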

Additional observations from a re-analysis of the deposited data

Results flagged for a closer look

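Of the 303 genes called between lec2-1 and Ws, 14 also differed between the Ws mutants lec1-1 and lec2-1 in edgeR's quasi-likelihood contrast of the mutants, and values are log2 differences of lec1-1 minus lec2-1. Both genes that were higher in lec1-1 after falling in lec2-1 are described above, AT3G17520 at 6.58 (adjusted p = 0.00190) and AT3G27420 at 8.70 (adjusted p = 0.00114).

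Among genes that rose in lec2-1, 8 were lower in lec1-1. The pseudogene AT2G16367 differed by -6.48 (adjusted p = 0.0322), AT3G28220 by -6.29 (adjusted p = 0.00637) and AT3G28270 by -5.59 (adjusted p = 0.0119). The cellulose synthase-like gene CSLA10 differed by -4.42 (adjusted p = 0.0378), MBP1 by -3.77 (adjusted p = 0.0332) and the glycine-rich protein gene GRP3S by -3.39 (adjusted p = 0.0478). The lectin AT1G52000 differed by -2.95 (adjusted p = 0.0478) and P5CS1, an enzyme of proline synthesis, by -2.76 (adjusted p = 0.0307).

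The remaining 4 were higher in lec1-1. ATCG00480 differed by 2.45 (adjusted p = 0.0378), AT4G29030 by 2.53 (adjusted p = 0.0402), AT1G06360, of the fatty acid desaturase family, by 3.14 (adjusted p = 0.0346) and the lectin JAL22 by 3.32 (adjusted p = 0.0402). This contrast called 204 genes with all libraries and between 2 and 159 when 1 of the lec2-1 or Ws libraries was left out.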

How the results depend on the processing

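The 303 calls became 757 with library totals, 105 with no replicate block (no day term), 565 with Ws, lec1-1 and lec2-1 alone, 115 with Ws and lec2-1 alone and no day term, 125 with a 2-fold minimum and 683 against the mean of the wild types, a control added after the data were seen, and 55 to 79 without 1 library. In those settings, and in the others run, calls were mostly higher in lec2-1. The 204 calls between the mutants became 20 with no replicate block, 1830 with the 3 Ws genotypes alone, 113 with the doubled library coded as 17 days, 621 without Col-0 at 17 and 21 days, 13 with a 2-fold minimum, 1035 with DESeq2, 476 with limma and 2 to 159 without 1 library. The 38 photosynthesis calls became 49 with library totals, 48 with the 3 Ws genotypes alone, 47 with DESeq2, 43 against the mean of the wild types, 35 with Ws and lec2-1 alone and no day term, 2 with no replicate block, 14 with a 2-fold minimum, 3 against Ler and 4 against Col-0 (both added after the data were seen), and 1 to 3 without 1 library. Leaving out Col-0 at 17 and 21 days gave 388 calls between lec2-1 and Ws in place of 303, and 47 photosynthesis calls in place of 38. Storage and oil body genes called lower stayed at 0 in every setting run. In the main fit only 0.0373% of all tested genes were called lower, so these counts cannot show that reserve transcripts were unchanged. With the longer motifs CATGCAT and CATGCATG the RY shares were 53.8% and 30.8% in storage genes, 20.0% and 10.0% in oil body genes and 2.46% and 0.351% in genes that rose. Against Col-0, the log2 fold changes of Fes1C, ATCG00480 and the starch gene ADG1 reversed to 0.059, -0.50 and -0.33. The causes were not tested. Depth limits genes at 0 in Ws, whose fold changes have only a lower limit.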
